A study of Drosophila melanogaster with 12 samples.

Results

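The 9 genes described here encode the MCM helicase and the proteins that load it or restrain its loading. They are Mcm2, Mcm3, dpa (the Drosophila name of Mcm4), Mcm5, Mcm6, Mcm7, Cdc6, dup (the Drosophila name of Cdt1) and geminin. They were taken by gene symbol from the 13777 genes of the deposited table. All 9 had a row, and all 9 passed the filter on low values (a mean of at least 1 CPM, reads of a gene scaled to a common library total), which left 9114 genes for testing.

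In the licensing step of DNA replication, the origin recognition complex and Cdc6 recruit the MCM ring to origins with the help of Cdt1. A double ring of MCM proteins is left on DNA, and it becomes the active helicase only when S phase kinases bring Cdc45 and the GINS complex to it. Geminin binds Cdt1 and blocks further loading after S phase has begun, so that each origin fires once per cycle. Transcripts of the MCM genes are known targets of E2F and are characteristic of proliferating cells, a group to which cultured S2 lines belong.

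The cells were S2R+, a hemocyte-like Drosophila embryonic line that adheres to its dish. The groups used were cells whose labels give no treatment (untreated) and cells overexpressing the wild-type form of 1 protein, Elav (ElavWT), Fne (FneWT) or else Rbp9 (Rbp9WT), with 2 libraries each; the latter 3 groups are together the transfected libraries. Elav, Fne and Rbp9 are the Drosophila members of the ELAV/Hu family of RNA-binding proteins, which are best known from neurons. Constructs were delivered with Effectene, a lipid reagent. The sources used here do not say whether untreated cells received the reagent or an empty plasmid, so the reagent, the plasmid and the protein cannot be told apart in any comparison with untreated cells. The 4 libraries of cells with proteins mutated in their RNA recognition motifs were not analysed here. No source states that same-group libraries came from separate cultures, so p-values measure the spread between libraries only.

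Each library was made by sequencing the 3′ ends of polyadenylated transcripts from 2 ug of total RNA. Depth ran from 4694825 to 14391952 reads, the deepest being untreated replicate 1, and the 9 genes together held 0.0356% to 0.0587% of the reads. Libraries numbered 1 and libraries numbered 2 stood apart across the whole table. The share of rRNA-named genes was 2.91% to 5.91% in replicate 1 and 15.4% to 24.8% in replicate 2. The hemocyte markers srp, Pxn, ush and crq were present in the cells, whereas gcm was at 0 and NimC1 reached at most 0.199 CPM. Hml and He were also low in untreated cells, at 0.417 and 1.91 CPM for Hml and 0.417 and 0 CPM for He. The overexpressed genes checked the labels unevenly. Rbp9 stood at 713 and 58.8 CPM in the Rbp9WT libraries against 3.34 and 2.35 CPM in untreated cells. fne stood at 97.4 and 48.0 CPM in FneWT, but also at 49.8 CPM in replicate 1 of ElavWT and at 115 CPM in replicate 1 of Rbp9WT. elav stood at 29.2 and 26.6 CPM in ElavWT against 24.9 and 37.3 CPM in untreated cells, so those 2 libraries are called the libraries labelled ElavWT. The sources used here do not tell whether any construct carried the 3′ end that is counted for its gene.

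The 9 genes are spread over the genome (dm6 coordinates, Ensembl annotation). Mcm2 lies at chr3R:8264970-8267924 and Mcm5 at chr3R:10788524-10791150, both on the plus strand. Mcm3 (chrX:5323855-5326738) and Mcm6 (chrX:6674387-6677176) are also on the plus strand, as is Mcm7 (chr3L:8891596-8894310). Cdc6 lies at chr3L:8631509-8634069 on the minus strand. dpa (chr2R:7496702-7500145), dup (chr2R:15376619-15380988) and geminin (chr2R:6655463-6656594) are all on the minus strand. Each gene has 1 annotated transcript 3′ end. Because reads come from 3′ ends and the sources used here do not say whether counting used strand, neighbours that end nearby on the opposite strand matter for what was counted. The end of CG9630 lies 19 bp from that of Mcm2, that of CG3309 63 bp from that of Mcm3, that of ND-ASHI 86 bp from that of Mcm6, and that of TrpA1 94 bp from that of Mcm7. CG9630 stood at 17.65 to 28.6 CPM, above Mcm2 in every library, and TrpA1 at 0 to 1.37 CPM. Mcm3 overlaps CG3309, Cdc6 overlaps Zasp66, Mcm7 overlaps asRNA:CR45871 and dup overlaps 1 gene, all on the opposite strand. Mcm5 has no other gene within 1000 bp of its end, and the end of Opbp lies 196 bp from that of geminin.

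Among the 6 helicase subunits dpa had the highest CPM in 7 of the 8 libraries. It stood at 129 and 46.3 CPM in untreated replicates 1 and 2, at 89.9 and 45.2 CPM in ElavWT, at 97.9 and 31.1 CPM in FneWT, and at 114 and 58.2 CPM in Rbp9WT. Every replicate 1 library lay above every replicate 2 library, whichever group it came from. Mcm5, which forms the gate of the ring together with Mcm2, had the widest range of the 9 genes, 12.3-fold from lowest to highest. Its values were 58.3 and 12.6 CPM in untreated cells, 23.7 and 11.7 CPM in ElavWT, 26.1 and 4.73 CPM in FneWT, and 42.9 and 15.1 CPM in Rbp9WT. The FneWT replicate 2 value rests on 26 reads.

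Mcm6 and Mcm7 are subunits of the helicase core. Mcm6 gave 46.7 and 55.7 CPM in untreated cells, 32.3 and 40.9 CPM in ElavWT, 26.7 and 26.0 CPM in FneWT, and 35.6 and 50.8 CPM in Rbp9WT. The FneWT and ElavWT libraries all lay below both untreated ones, and the Rbp9WT libraries overlapped them. Mcm7 gave 27.6 and 57.3 CPM in untreated cells, 22.7 and 32.0 CPM in ElavWT, 31.4 and 25.1 CPM in FneWT, and 28.9 and 57.4 CPM in Rbp9WT. The untreated and Rbp9WT pairs were nearly the same, each with a high replicate 2.

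Mcm2 and Mcm3 had the lowest CPM of the subunits in most libraries. Mcm2 stood at 11.1 and 13.8 CPM in untreated cells, 13.1 and 5.11 CPM in ElavWT, 14.9 and 21.1 CPM in FneWT, and 16.1 and 11.8 CPM in Rbp9WT. It was the only one of the 9 whose FneWT libraries both exceeded both untreated ones. Mcm3 stood at 12.02 and 12.3 CPM in untreated cells, 8.46 and 7.03 CPM in ElavWT, 5.34 and 21.6 CPM in FneWT, and 7.76 and 13.3 CPM in Rbp9WT. FneWT held both its lowest and its highest value.

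Of the loading factors and their inhibitor, geminin was the most abundant, with a median of 219.6 CPM over the 8 libraries, and the loader dup the least, with 9.26 CPM. These CPM count transcript ends and are not divided by gene length. geminin stood at 266 and 259 CPM in untreated cells, 154 and 226 CPM in ElavWT, 144 and 214 CPM in FneWT, and 174 and 233 CPM in Rbp9WT. All 6 transfected libraries lay below both untreated ones, and in each transfected group replicate 1 was the lower. dup stood at 20.2 and 8.22 CPM in untreated cells, 14.9 and 4.26 CPM in ElavWT, 11.8 and 5.64 CPM in FneWT, and 10.2 and 8.37 CPM in Rbp9WT. Replicate 1 exceeded replicate 2 in every group, and the lowest value rests on 20 reads. Cdc6, the ATPase that works with the origin recognition complex, stood at 17.0 and 12.3 CPM in untreated cells, 9.45 and 15.5 CPM in ElavWT, 23.9 and 7.46 CPM in FneWT, and 15.2 and 15.9 CPM in Rbp9WT, and its groups all overlapped.

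**Figure D1:**
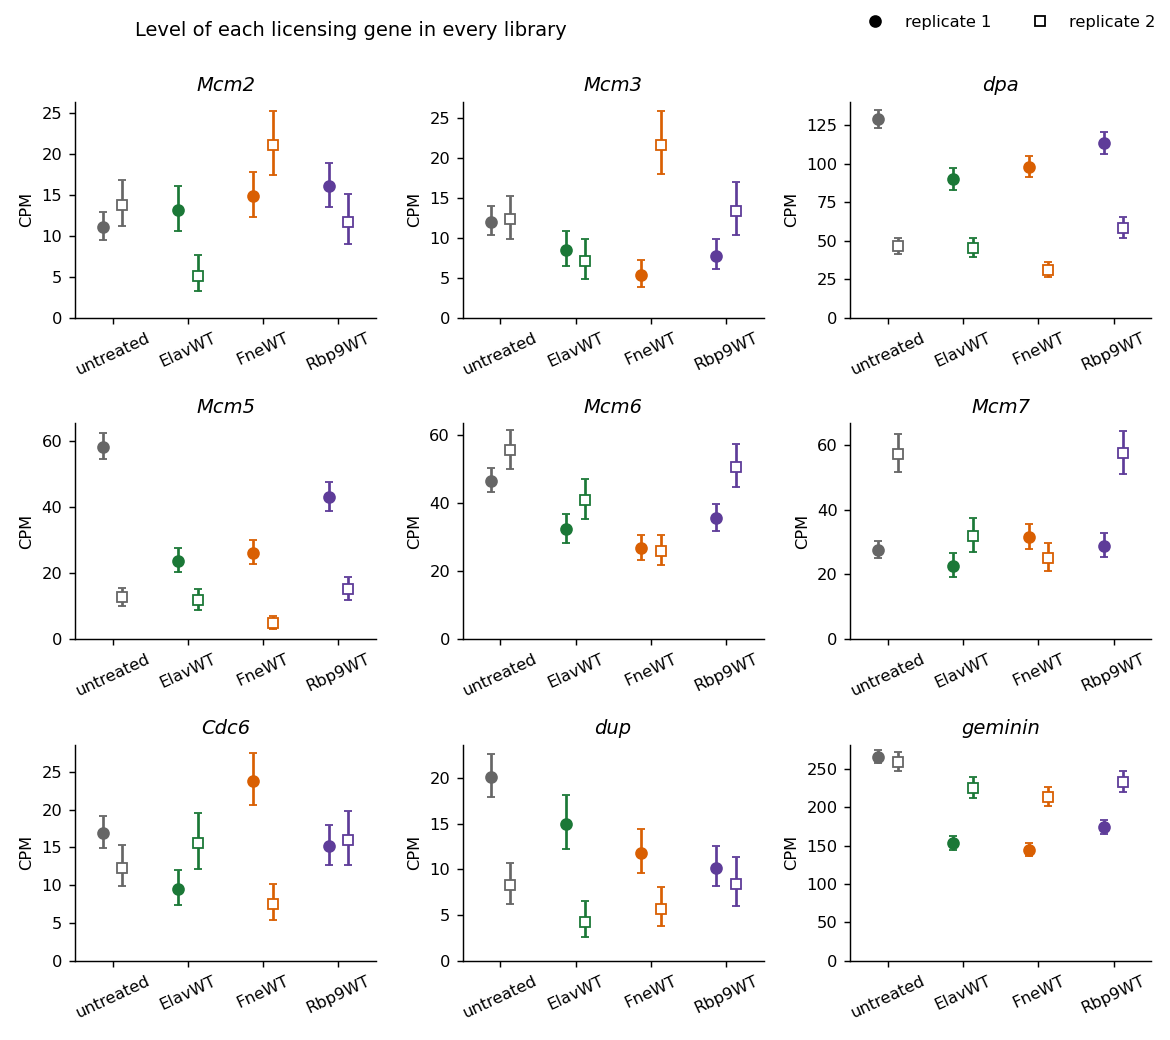
Level of each of the 9 genes in every library. The y axis of each panel is CPM, starting at 0, filled circles are replicate 1, open squares replicate 2, and bars are 95% Poisson intervals of the reads, which cover counting error only. dpa, Mcm5 and dup were higher in replicate 1 in all 4 groups, and geminin was lower in all 6 transfected libraries than in both untreated ones.

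As group means ± SD (n = 2), geminin was 262 ± 4.69 CPM in untreated cells, 190 ± 50.9 CPM in ElavWT, 179 ± 48.9 CPM in FneWT and 204 ± 41.7 CPM in Rbp9WT. Mcm6 was 51.2 ± 6.34, 36.6 ± 6.09, 26.4 ± 0.497 and 43.2 ± 10.7 CPM in the same order. The spread within a group was wider for dpa and Mcm5. For dpa the untreated SD was 58.5 CPM around a mean of 87.6 CPM, and for Mcm5 it was 32.3 CPM around 35.5 CPM. The order of the group means of Mcm5 was untreated, Rbp9WT, ElavWT, FneWT from high to low.

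The first question was whether overexpression of an ELAV/Hu protein went with a change in the licensing genes. With group as the only term (limma on log2(CPM + 1), Benjamini-Hochberg adjustment over 9114 genes), none of the 9 genes passed an adjusted p under 0.05 in any contrast. The background was the same, since 0% of all genes passed in each of the 7 contrasts. In this limma fit the number of genes at an unadjusted p under 0.05 was 444 for ElavWT, 677 for FneWT, 666 for Rbp9WT and 904 for the mean of the 3 constructs against untreated cells. Of the 9 members, only Mcm6 in FneWT was among them. edgeR on the recovered reads with the same design also called 0 genes, and DESeq2 called 263, 436, 266 and 594, with none of the 9 among them. In bulk RNA such as this, fewer cells of a type and less RNA per cell cannot be told apart.

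All log2 changes below are on the log2(CPM + 1) scale and given as distance from the median tested gene, which itself shifted upward by 0.25 in ElavWT, 0.28 in FneWT, 0.42 in Rbp9WT and 0.31 for the mean of the 3. The standard error and the adjusted p are those of the unshifted change. The 9 genes lay below the median gene in 9 of 9 cases in ElavWT, 8 of 9 in FneWT (Mcm2, at 0.21, was the exception), 9 of 9 in Rbp9WT and 9 of 9 for the mean of the 3. Their median was -0.78 in ElavWT, -0.77 in FneWT, -0.51 in Rbp9WT and -0.65 for the mean of the 3. The 3 constructs share the untreated libraries, so these counts are not independent of each other. The 5482 tested genes with a mean CPM in the members' own range, 10.4 to 208.6, also lay low, with a median of -0.13 and 58.8% of them below the median gene for the mean of the 3.

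For the mean of the 3 constructs against untreated cells, the changes of the ring subunits were -0.97 for Mcm5, -0.86 for Mcm6, -0.65 for Mcm7, -0.63 for Mcm3, -0.54 for dpa and -0.28 for Mcm2. Those of the other 3 were -0.86 for dup, -0.79 for geminin and -0.39 for Cdc6. Standard errors in the fit with group only ran from 0.31 (geminin and Mcm6) to 0.82 (Mcm5). Set against the untreated library of the same number, geminin was lower in 6 of 6 libraries. Its CPM ratio in replicate 1 was 0.578 for ElavWT, 0.543 for FneWT and 0.655 for Rbp9WT, and in replicate 2 it was 0.871, 0.824 and 0.9. The decrease of geminin was thus larger in replicate 1 under all 3 constructs, each of which was set against the same untreated library there.

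**Figure D2:**
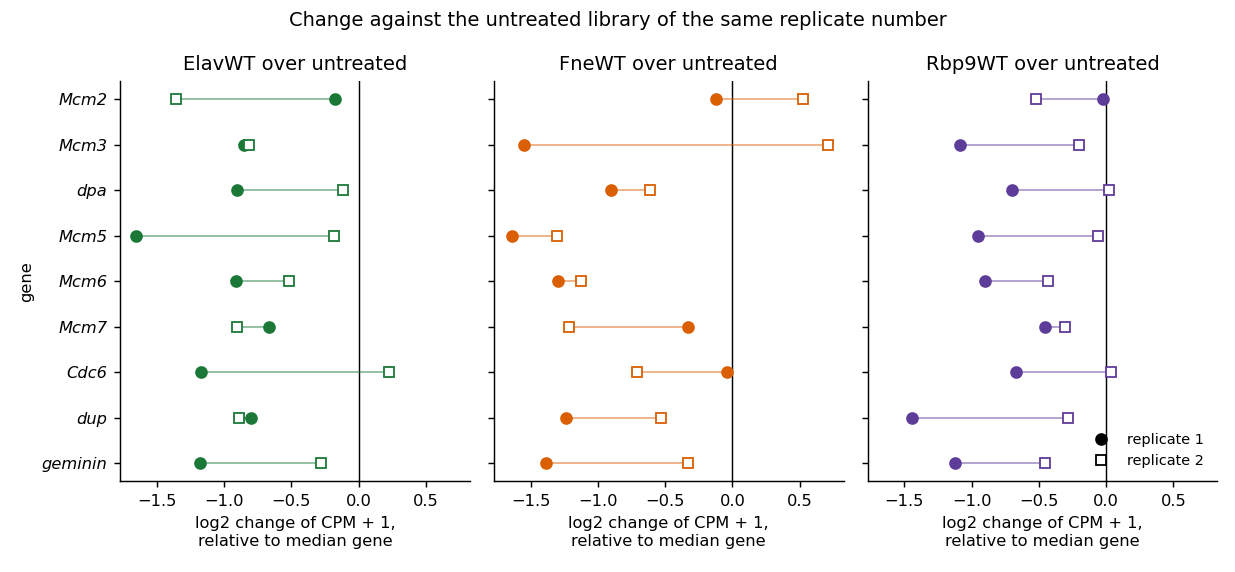
Log2 change of CPM + 1 against the untreated library of the same replicate number, relative to the median gene (x axis), for each gene (y axis) under each construct; filled circles are replicate 1 and open squares replicate 2. In replicate 1 all 9 genes lay below the median gene under each construct, and in replicate 2 there were 8 of 9 in ElavWT and 7 of 9 in both FneWT and Rbp9WT.

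Genes whose groups do not overlap were also counted without any model. Mcm3, Mcm6 and geminin were below both untreated libraries in both ElavWT libraries, 3 of 9 against 7.33% of all tested genes. In FneWT this held for Mcm6 and geminin, 2 of 9 against 8.06%, and in Rbp9WT for geminin alone, 1 of 9 against 5.98%. Over all 6 transfected libraries it was again geminin, 1 of 9 against 2.63%. In the other direction there was Mcm2 in FneWT, 1 of 9 against 25.3%, and none of the 9 in ElavWT, Rbp9WT or all 6 together, where 23%, 33.5% and 14.4% of genes lay above both untreated libraries.

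The replicate number took up much of the spread of these genes, and a fit with that number as a further term gave smaller standard errors. In that fit, Mcm5 and Mcm6 were lower in FneWT than in untreated cells. Mcm5 fell by 1.47 ± 0.34 (SE; limma with replicate block, adjusted p = 0.0185) and Mcm6 by 1.21 ± 0.29 (adjusted p = 0.0293), each lower in 2 of 2 libraries. With the group term alone their adjusted p were 0.875 and 0.666. The 2 of 9 that fell stand against 1.94% of all genes that were lower in FneWT, while 15.1% were higher. No member passed in ElavWT, where 1.09% of genes were lower and 9.02% higher, nor in Rbp9WT, with 0.735% lower and 17.7% higher, nor for the mean of the 3 constructs, with 2.49% lower and 21.2% higher. ND-ASHI, whose end faces that of Mcm6, stood at 139 and 75.3 CPM in the FneWT libraries and reached 171 CPM in the series, and its part in the Mcm6 result was not tested.

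These calls depended on single libraries. Without untreated replicate 1, the adjusted p became 0.291 for Mcm5 and 0.163 for Mcm6. Without FneWT replicate 1 they were 0.0568 and 0.0846, and without FneWT replicate 2 they were 0.212 and 0.176. Mcm6 also lost its call without Rbp9WT replicate 1 (adjusted p = 0.0556) or replicate 2 (adjusted p = 0.0609), and geminin joined the called genes without untreated replicate 2, with an adjusted p of 0.0327 in limma with the replicate block. The direction of both genes held in each of these fits.

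The number of calls also depended on the scaling. With median-ratio size factors and the replicate block, the genes called in FneWT were again Mcm5 and Mcm6 (2 of 9, with 6.55% of all genes lower), none was called in ElavWT (2.86%) or Rbp9WT (4.85%), and 4 of 9 were called for the mean of the 3 constructs (10.5%). Those 4 were Mcm6, with an adjusted p of 0.00823 in limma with the replicate block, Mcm5 (0.0163), geminin (0.0263) and dup (0.0432). Under that scaling the calls over all genes for the mean of the 3 split into 1415 higher and 957 lower, against 1934 higher and 227 lower under CPM. The same split was 1111 and 597 against 1374 and 177 in FneWT, 940 and 442 against 1617 and 67 in Rbp9WT, and 699 and 261 against 822 and 99 in ElavWT.

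Count models on the recovered reads with the replicate block called more. edgeR's quasi-likelihood test put 2 members lower in ElavWT (Mcm5 and Mcm6; 5.73% of genes lower), 4 in FneWT (Mcm5, Mcm6, dpa and geminin; 10.2%), 2 in Rbp9WT (Mcm6 and geminin; 8.72%) and 6 for the mean of the 3 (those 4 with Mcm7 and dup; 16.4%). DESeq2 put 0 lower in ElavWT (4.17%), 3 in FneWT (Mcm5, Mcm6 and geminin; 8.25%), geminin in Rbp9WT (7.22%) and 4 for the mean of the 3 (Mcm5, Mcm6, geminin and dup; 12%). No member was called higher in any of these fits. Mcm2, Mcm3 and Cdc6 were called in none of these contrasts with untreated cells.

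The second question was whether the 3 proteins differed from each other. None of the 9 genes passed between any pair of constructs, with or without the replicate block. With group only, limma gave 62, 88 and 25 genes an unadjusted p under 0.05 in FneWT against ElavWT, Rbp9WT against ElavWT and Rbp9WT against FneWT, edgeR called 0 and DESeq2 called 1, 4 and 1. With the block, limma called 0.176% of genes between FneWT and ElavWT, 0.592% between Rbp9WT and ElavWT and 0% between Rbp9WT and FneWT. In the last of these contrasts edgeR called 1 gene and DESeq2 4. There limma gave 506 genes (5.55%) an unadjusted p under 0.05. Of the 9 members, 2 were among them, Mcm5 (unadjusted p = 0.00392, limma with replicate block) and Mcm6 (0.0301). The widest difference was that of Mcm5, 0.98 ± 0.34 higher in Rbp9WT than in FneWT (limma with replicate block, adjusted p = 0.558). Next came Mcm2, 0.97 ± 0.39 higher in FneWT than in ElavWT (limma with replicate block, adjusted p = 0.479). By replicate number, the Mcm5 difference was 0.73 and 1.23. That of Mcm2 was 0.042 in replicate 1 and 1.88 in replicate 2, so it rests on replicate 2, where ElavWT had 24 reads. The decrease of Mcm5 and Mcm6 in FneWT was thus not shown to differ from their change under the other constructs.

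In the limma fit with the block, 4 of 9 members passed between the replicate numbers, more than between any groups. The same held for 5292 of all 9114 tested genes, so the members did not stand out. This comparison was added after the data were seen, and the labels do not give the source of the difference. Mcm5 and dpa were higher in replicate 1 in all 4 groups, with CPM ratios of replicate 1 over replicate 2 from 2.02 to 5.52 and from 1.95 to 3.15. dup was also higher in all 4, at 1.21 to 3.51. Ratios of Mcm6 ran from 0.701 to 1.03, those of geminin from 0.676 to 1.03 and those of Mcm7 from 0.482 to 1.25. Mcm2, Mcm3 and Cdc6 went both ways.

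Relative to the median gene, which was 0.59 higher in replicate 1, Mcm5 was 1.10 ± 0.24 higher (SE; limma with replicate block, adjusted p = 4.1e-06) and dpa 0.66 ± 0.21 higher (adjusted p = 2e-05). dup was 0.41 ± 0.28 higher (adjusted p = 0.00353), and Mcm7 fell by 1.13 ± 0.23 (adjusted p = 0.0486). The adjusted p test the unshifted changes, which were 1.69 for Mcm5, 1.25 for dpa, 0.999 for dup and -0.539 for Mcm7. These 3 higher and 1 lower of 9 stand against 48.3% of all genes higher and 9.78% lower. Relative changes of the others were -1.18 for Mcm3, -0.96 for geminin, -0.85 for Mcm6, -0.37 for Mcm2 and -0.28 for Cdc6, and none of these passed. The unshifted change of Mcm3 was -0.586 (limma with replicate block, adjusted p = 0.0985). The replicate number took 94.8% of the residual sum of squares of dpa, 91.3% of that of Mcm5 and 80.6% of that of dup, but 12.9% for Cdc6 and 9.66% for Mcm2. The share of rRNA-named reads differed between the same libraries, as given above, and its part in this was not tested; with CPM recomputed without those genes, dpa, Mcm5 and dup were higher (3 of 9 against 38.6% of all genes) and Mcm3, Mcm6, Mcm7 and geminin lower (4 of 9 against 14.8%). The split between higher and lower members also moved with the scaling. With median-ratio size factors, edgeR and DESeq2 alike, dpa and Mcm5 were higher and Mcm3, Mcm6, Mcm7 and geminin lower in replicate 1, and dup did not pass. Of all genes, 30.3% were higher and 22.2% lower with median-ratio size factors, 29% and 23.4% with edgeR, and 29.1% and 22.1% with DESeq2.

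**Figure D3:**
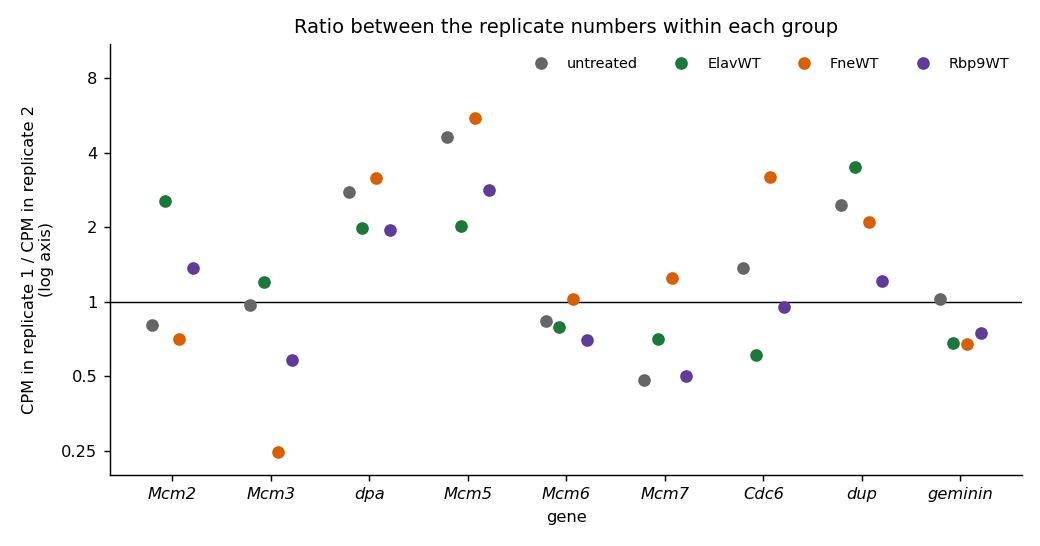
CPM in replicate 1 divided by CPM in replicate 2 within each group, for each gene (x axis), on a log axis where 1 means equal. dpa, Mcm5 and dup lay above 1 in all 4 groups, while Mcm3, Mcm6, Mcm7 and geminin lay below 1 in 3 of 4.

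Shares within the 6 ring subunits do not depend on how libraries are scaled. dpa held 45.3% to 48.4% of the MCM reads in the replicate 1 libraries and 23.4% to 31.8% in replicate 2, and Mcm5 held 12.5% to 20.5% against 3.65% to 8.26%. Mcm7 held 9.69% to 15.5% in replicate 1 and 19.4% to 28.9% in replicate 2, and Mcm6 13.2% to 17.0% against 20.1% to 28.8%. Thus for these 4 genes the ranges of the numbers did not overlap, whichever construct the cells carried. The 6 shares of a library divide 1 total, so higher shares of dpa and Mcm5 go with lower shares of the rest. In CPM the ranges of replicates 1 and 2 overlapped for Mcm6 (26.7 to 46.7 and 26.0 to 55.7) and Mcm7 (22.7 to 31.4 and 25.1 to 57.4). In untreated cells dpa held 45.3% (95% exact interval 43.8% to 46.8%) of 4097 reads in replicate 1 and 23.4% (21.1% to 25.7%) of 1348 reads in replicate 2. Mcm2 and Mcm3, with 16.3% and 16.7%, were at their highest in FneWT replicate 2, where they held 3.60% to 7.37% and 2.64% to 6.46% elsewhere.

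**Figure D4:**
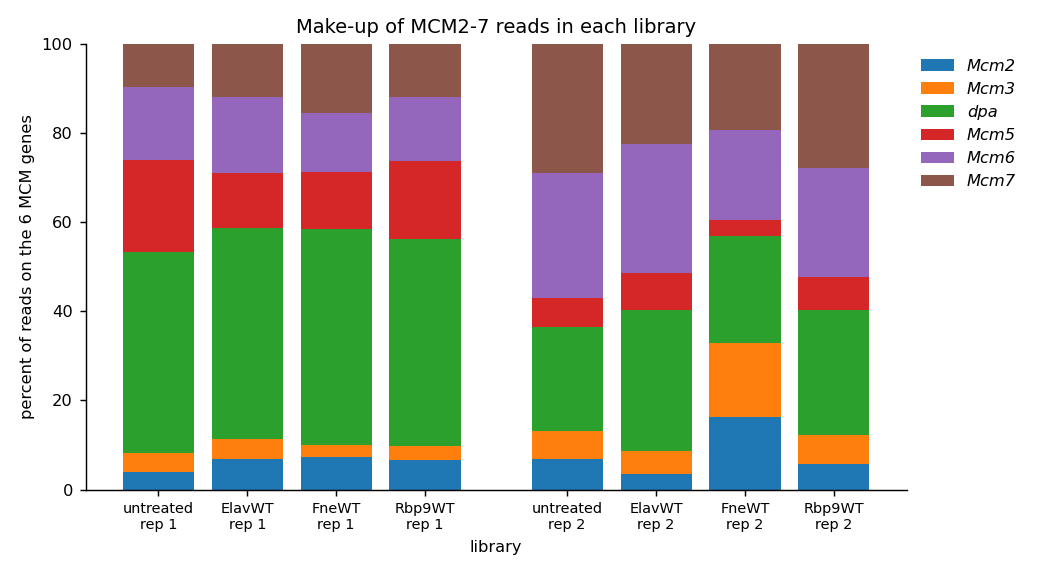
Make-up of the reads on the 6 MCM genes in each library (x axis), as percent of those reads (y axis), with replicate 1 libraries on the left and replicate 2 on the right. dpa made up 45.3% to 48.4% on the left and 23.4% to 31.8% on the right.

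The ratio of the inhibitor to its target was also divided by replicate number. There were 13.2 geminin reads per dup read in untreated replicate 1 (95% interval 11.7 to 14.9) and 31.5 in replicate 2 (24.1 to 41.9). The ElavWT libraries gave ratios of 10.3 and 53.0, the FneWT libraries 12.2 and 37.9, and the Rbp9WT libraries 17.1 and 27.9. All 4 replicate 1 libraries lay below all 4 replicate 2 libraries, and the transfected libraries lay on both sides of the untreated one within each number. Summed over the 6 MCM genes, untreated cells had 285 and 198 CPM, ElavWT had 190 and 142 CPM, FneWT had 202 and 130 CPM, and Rbp9WT had 245 and 207 CPM.

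Other steps of replication were described with lists of genes in the same block fit, for the mean of the 3 constructs against untreated cells. Of the origin recognition complex, which marks origins, 0 of 4 tested genes passed and the median relative change was -0.37. Among 11 genes of helicase activation and origin firing (Cdc45, GINS subunits and their partners) 0 passed, with a median of -0.52. Among 10 genes of S phase cyclins, kinases and licensing turnover 0 passed, with a median of -0.34, and among 12 E2F and DREAM regulators 0 passed, with a median of -0.56. These 4 lists also had 0 genes passing under each construct alone. Of all genes, 2.49% were lower and 21.2% higher for the mean of the 3. Under single constructs 0.735% to 1.94% were lower and 9.02% to 17.7% higher. The median of all tested genes is 0 on this scale by construction, and that of the 9 licensing genes was -0.65. This background differed by level, so the list medians are not on an equal footing. It was 0.45 for genes with a mean of 1 to 10 CPM, -0.12 from 10 to 100 CPM and -0.30 above 100 CPM. The tested origin recognition genes had means of 2.87 to 9.13 CPM.

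Genes downstream of the helicase gave a few calls. Of 24 tested fork and DNA synthesis genes, Ts (thymidylate synthase) and PCNA (the sliding clamp) were lower for the mean of the 3 constructs, PCNA2 (a second PCNA gene) was higher, and the list's median was -0.50. These 2 lower and 1 higher of 24 stand against 2.49% of all genes lower and 21.2% higher. Ts stood at 59.8 and 20.4 CPM in untreated cells and between 9.64 and 27.5 CPM in the transfected libraries, and it fell by 1.29 (limma with replicate block, adjusted p = 0.0105). PCNA stood at 181 and 127 CPM in untreated cells and between 66.2 and 119 CPM in the transfected libraries, none of which reached either untreated value, and it fell by 0.97 (adjusted p = 0.039 in the same limma fit). PCNA2 stood at 3.47 and 0.734 CPM in untreated cells and between 1.82 and 18.0 CPM in the transfected ones, and it was 1.21 higher (adjusted p = 0.00415 in the same limma fit). Without untreated replicate 1 none of these 3 passed, with limma adjusted p of 0.519 for Ts, 0.235 for PCNA and 0.162 for PCNA2. PCNA also lost its call with each of the other 7 libraries left out, at adjusted p from 0.0516 to 0.15.

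Of 12 mitosis genes, 4 were lower for the mean of the 3 constructs. They were the kinases aurA and aurB, the aurB partner Incenp, and fzy, the Cdc20 activator of the anaphase-promoting complex. Of all genes 2.49% were lower in that fit, 10.5% with median-ratio scaling and 16.4% with edgeR. The list's median was -0.75. aurB stood at 88.7 and 80.8 CPM in untreated cells and between 29.7 and 70.5 CPM in the transfected libraries, all below both untreated values, and it fell by 1.29 (limma with replicate block, adjusted p = 0.00568). Incenp stood at 108.5 and 141 CPM in untreated cells and between 48.5 and 105 CPM in the transfected libraries, and it fell by 1.08 (adjusted p = 0.0194 in the same limma fit). Without untreated replicate 1 the limma adjusted p for the mean of the 3 was 0.399 for aurA, 0.376 for aurB, 0.208 for fzy and 0.473 for Incenp. Incenp also lost its call without FneWT replicate 1 (adjusted p = 0.0515) or Rbp9WT replicate 1 (adjusted p = 0.0697).

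**Figure D5:**
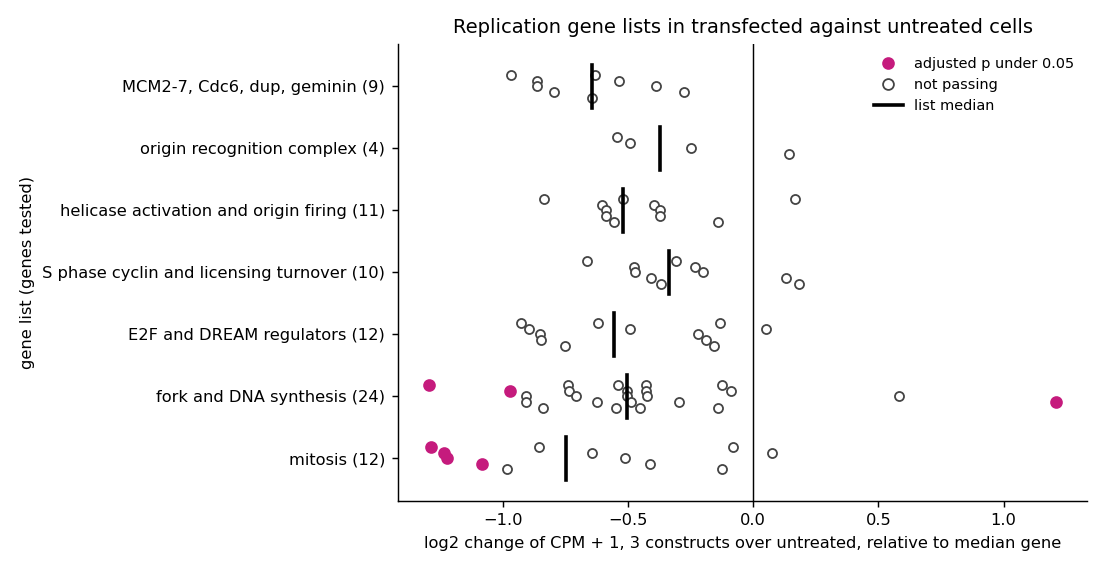
Log2 change of CPM + 1 (x axis, distance from the median gene) for the mean of the 3 constructs against untreated cells, for the genes of each list (y axis, with the number tested); filled points passed an adjusted p under 0.05 in limma with the replicate block, open points did not, and vertical bars are list medians. Medians ran from -0.34 to -0.75, and that of the 9 licensing genes was -0.65.

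The genes with profiles most like the members' mean profile over the 8 libraries were found by the root mean square difference of centred log2(CPM + 1). The nearest was mof, an acetyltransferase of the dosage compensation complex, at 0.0986. It was followed by the tetraspanin Tsp42Ee (0.105), a gene without a symbol in the tables used, FBgn0025683 (0.114), Gnf1, the large subunit of the clamp loader (0.117), and GAA1, a subunit of the GPI transamidase (0.119). mof stood at 39.6 and 26.0 CPM in untreated cells and between 22.0 and 31.2 CPM in the transfected libraries. The members themselves lay at 0.35 for Mcm6 to 0.80 for Mcm5 from their own mean. The 5 genes were picked as the nearest of all tested genes, so that they lay nearer follows from the choice. The mean profile was highest in untreated replicate 1 and lowest in ElavWT replicate 2 and FneWT replicate 2.

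Markers of other cell types also differed between libraries. The summed CPM of 11 neuron markers in replicate 1 was 329 in untreated cells, 1182 in ElavWT, 709.7 in FneWT and 733.5 in Rbp9WT, and in replicate 2 it was 663, 675, 693 and 739.8 in the same order. Syx1A, a syntaxin of vesicle release, stood at 196 and 605.5 CPM in untreated cells and at 333.7 to 648 CPM in transfected ones. It made up most of the neuron sum in every replicate 2 library, with 559 CPM in ElavWT, 592 CPM in FneWT and 648 CPM in Rbp9WT. The near-equal sums of replicate 2 thus mainly follow Syx1A and say little about the other neuron markers. Rdl, a GABA receptor subunit, stood at 363.6 CPM in ElavWT replicate 1 and at 54.3 CPM or less elsewhere. Neither Syx1A nor Rdl passed for the mean of the 3 constructs in limma with the replicate block. The neuron markers that were higher there included Appl, Vmat, futsch and para. The summed CPM of 7 muscle markers was 21.7 to 22.5 against 29.0 to 247.8, and that of 5 germline markers 21.4 to 22.7 against 41.4 to 168. Mef2 was the largest part of the muscle sum in every library. It stood at 12.3 and 20.6 CPM in untreated cells, 51.6 and 20.2 CPM in ElavWT, 131 and 46.9 CPM in FneWT, and 186 and 74.9 CPM in Rbp9WT. The 5 glia markers spanned 187 to 317 against 185 to 465 CPM, and the 13 hemocyte markers 524 to 525 against 437 to 1015 CPM. In the limma fit with the replicate block for the mean of the 3, 5 of 10 tested neuron, 4 of 6 muscle, 1 of 3 germline, 1 of 4 glia and 5 of 10 hemocyte markers were higher, against 21.2% of all genes. The germline marker was osk, at 1.88 and 1.18 CPM in untreated cells and 23.1 to 149 CPM in transfected ones. The rise of the germline sum was that of osk. By contrast aub was lower, at 18.7 and 20.1 CPM in untreated cells and 7.88 to 17.3 CPM in transfected ones. The highest values of vas, piwi and bam were 0.457, 1.46 and 4.91 CPM. The part of these changes in the values of the licensing genes was not tested.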

How the data were processed

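Libraries of 3′ ends were prepared by a custom method from total RNA, per the labels' protocols. The authors deposited 1 table of CPM (reads scaled to a common library total) for 13777 genes. Per the submitters' processing notes the build was dm6; no source used here gives the aligner, the counter or its use of strand. CPM values of a library are multiples of what 1 read is worth, and dividing by that unit turned 100% of them into whole reads (tolerance 0.01 of a read). Depth was 4694825 to 14391952 reads, so that 3 reads equal 0.208 to 0.639 CPM, and intervals (95%, exact) cover counting error only. Names came from Ensembl release 115 and from RefSeq for 13684 genes, and 93 identifiers had no match.

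The 9114 genes whose mean reached 1 CPM were fitted on log2(CPM + 1) by limma 3.58.1 with trended, robust empirical Bayes (R 4.3.3), using all 8 libraries and no term but group (4 residual degrees of freedom) and Benjamini-Hochberg adjustment over all tested genes. The alternative with the replicate number as a block has 3. Same-numbered libraries deviated together from their groups' means, with correlations of 0.55 to 0.869 over the 6 pairs of groups, so the numbers were taken to pair the libraries; this rests on the data, not on the labels. The recovered reads were also tested by edgeR 4.0.16 and by DESeq2 1.42.0. Other alternatives were a pseudocount of 0.5, no filter, median-ratio scaling, CPM without the 11 rRNA-named genes and leaving out each library.

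The members and lists were chosen with earlier results of these data known. All 9 members are named. Of each list of replication genes, at most 4 genes that passed with the replicate block are named, by absolute log2 change. The 5 genes nearest to the members' mean profile are also named. Some cell type markers are named for their level or spread although they did not pass. Leaving out libraries for the fork and mitosis genes, and the comparison of replicate numbers, were added after the data were seen. Orc1, RPA2, RPA3 and nos had no matched row.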

Additional observations from a re-analysis of the deposited data

Results flagged for a closer look

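Set against the untreated library of the same number, Mcm7 was lower in both libraries labelled ElavWT and at about the untreated level in both Rbp9WT libraries, where its sign was the opposite one. On the unshifted log2(CPM + 1) scale it fell by 0.271 and fell by 0.823 in replicates 1 and 2 of ElavWT, and was higher by 0.0637 and 0.00227 in Rbp9WT. The mean difference between Rbp9WT and ElavWT was 0.58. In the direct contrast of the 2 constructs the adjusted p was 0.567 in limma with the replicate block, so the difference did not pass. The ratio of CPM in Rbp9WT to untreated cells had 95% intervals of 0.891 to 1.23 and 0.857 to 1.17, both of which hold 1. Relative to the median gene, Mcm7 lay low in both groups, at -0.66 and -0.90 in ElavWT and at -0.45 and -0.30 in Rbp9WT.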

How the results depend on the processing

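With group as the only term, 0 members passed in every contrast under each alternative run. Over all genes that fit called 0, which moved only with DESeq2 (263 for ElavWT, 436 for FneWT, 266 for Rbp9WT and 594 for the mean of the 3 constructs against untreated cells, and 1, 4 and 1 for FneWT against ElavWT, Rbp9WT against ElavWT and Rbp9WT against FneWT) and with median-ratio scaling for the mean of the 3 (15). Adding the replicate block gave 921, 1551, 1684 and 2161 genes in the 4 contrasts with untreated cells and 16, 54 and 0 between constructs; members passing became 2 in FneWT and no other call of a member changed under that block alone. In the same order, the block gave 1044, 1662, 1820, 2294, 16, 54 and 1 genes with a pseudocount of 0.5, 621, 1218, 1245, 1710, 0, 11 and 1 without a filter, 960, 1708, 1382, 2372, 16, 39 and 0 with median-ratio scaling, and 887, 1607, 1603, 2167, 16, 29 and 0 without rRNA-named genes. It gave 1534, 2364, 2046, 3124, 21, 54 and 1 with edgeR, and 1351, 2077, 1860, 2682, 34, 82 and 4 with DESeq2. Members passing in FneWT with the block were 2 with a pseudocount of 0.5, 1 without a filter, 2 with median-ratio scaling, 2 without rRNA-named genes, 4 with edgeR and 3 with DESeq2. For the mean of the 3 they were 4 with median-ratio scaling, 6 with edgeR and 4 with DESeq2, in ElavWT 2 with edgeR, and in Rbp9WT 2 with edgeR and 1 with DESeq2. Leaving out 1 library at a time, with or without the block (0 in all fits without it), gave 0 to 2796 genes in ElavWT, 0 to 3465 in FneWT, 0 to 3429 in Rbp9WT, 0 to 3746 for the mean of the 3, and 0 to 135, 0 to 300 and 0 to 6 between constructs. Members passing ran from 0 to 3 in FneWT and from 0 to 2 for the mean of the 3. Between the replicate numbers 4 members passed (3 higher, 1 lower; also with a pseudocount of 0.5), 3 (all higher) without a filter, 7 (3 higher, 4 lower) without rRNA-named genes, 6 (2 higher, 4 lower) with median-ratio scaling, edgeR or DESeq2, and 3 to 5 with 1 library left out. The sign of a member's relative change turned in 20 cases, each case being a gene in a given contrast and fit. Mcm3 in FneWT was 0.062 with edgeR and 0.055 with DESeq2, group only; with 1 library left out it ran from -1.71 to 0.84. Leave-one-out ranges of the others that turned were -0.40 to 0.79 for Mcm2 and -1.08 to 0.31 for Cdc6 in FneWT, -1.14 to 0.042 for dpa and -1.17 to 0.22 for Cdc6 in ElavWT, -0.96 to 0.19 for dpa, -1.46 to 0.35 for Mcm5 and -1.10 to 0.34 for Mcm7 in Rbp9WT, -1.17 to 0.0067 for dpa for the mean of the 3, and -0.62 to 0.077 for Cdc6 between the replicate numbers. The members' median relative change ran from -0.99 to -0.47 in ElavWT, from -1.06 to -0.45 in FneWT, from -0.98 to -0.25 in Rbp9WT and from -1.03 to -0.45 for the mean of the 3 over all fits. No sign turned under a change of scaling, filter or pseudocount in limma. Depth limits dup, Mcm5 and Mcm2 most, whose lowest values rest on 20, 26 and 24 reads. The cause of these changes was not tested.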
